A study of Mus musculus with 6 samples.

Results

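Neutral amino acids enter and leave cells through several families of membrane carriers. Members of the SLC38 family take up glutamine, alanine and related amino acids together with sodium, those of the SLC1 family named here exchange alanine, serine, cysteine, threonine or glutamine across the membrane, and the SLC43 carriers let branched-chain and aromatic amino acids pass down their gradient without sodium. Slc6a6 carries taurine and Slc6a9 glycine, each with sodium and chloride. Activated T cells raise their uptake of glutamine and other neutral amino acids, and the cells of mice without Slc1a5 take up less glutamine when activated. In mammalian cells short of an amino acid, some of these carriers, with Slc38a2 the best known, are induced through the transcription factor Atf4.

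The 10 genes described here are Slc1a4, Slc1a5, Slc38a1, Slc38a2, Slc38a5, Slc38a7, Slc6a6, Slc6a9, Slc43a1 and Slc43a2, a chosen set of carriers of neutral amino acids or taurine from the SLC1, SLC6, SLC38 and SLC43 families. The rule that lists them uses no measured value, but the set was drawn up with earlier results of these data known and leaves out other carriers of these families, which are counted further on. A gene was represented by its brightest probe set among those with exactly 1 gene symbol, and 9 of the 10 had such a probe set, out of 22180 genes in all. The probe set that lists Slc6a9 lists Ccdc24 as well, so Slc6a9 has no value here.

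Arrays of 1 colour were hybridised with RNA of stimulated CD4 T cells. The cells came from mice with the OT II transgene, whose T cell receptor recognises an ovalbumin peptide. In the low arginine group (3 arrays), T cells and antigen-presenting cells were held with the peptide for 72 hours in RPMI-1640 with 10% dialysed serum and arginine at 1% of its normal level (12 uM), and in the control group (3 arrays) in the same medium with normal arginine. All cells were thus stimulated, there was no unstimulated group, and CD4 cells were purified again before lysis. The mice were housed together to an age of 12 to 16 weeks, 6 mice are named in all, and the labels call the arrays biological replicates without saying which mice each array holds, so p-values measure the spread between these arrays.

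Values are log2 expression per probe set, and a change is low arginine minus control on that scale. No detection call was used. The dimmest genes, a share of 0.333 by mean level (7393 genes, under 2.48), were left out, and 14787 genes were tested together with limma, with p adjusted by the method of Benjamini and Hochberg and a threshold of 0.05. The number of arrays limits the precision. The arrays carried T cell transcripts at high levels in both groups: Cd3e averaged 10.87 ± 0.08 in low arginine and 10.77 ± 0.04 in control, and Cd4 averaged 10.09 ± 0.18 in low arginine and 10.33 ± 0.12 in control (SD, n = 3 each). Of 14787 genes, 767 were higher and 1032 lower in low arginine, or 535 and 1190 after centring the arrays on their 75th percentile. Control replicate 1 stood apart from the other controls on the second principal component (score 35.15, against -8.53 and -22.33), so the change of each tested carrier is also given without it.

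In cells short of arginine, Slc1a4 and Slc38a7 rose and Slc6a6 fell, while the other 5 carriers tested did not pass the threshold. These were 3 of 8 carriers tested (37.5%), against 12.2% of all genes tested. By direction, 2 of 8 rose against 5.19% of all genes, and 1 of 8 fell against 6.98%. The median change of the 8 carriers was 0.24, beside 0.01 over all genes tested. In 5 of the 8 the 2 groups did not overlap, which held for 32.2% of all genes tested. Of the 9 carriers with a probe set, Slc38a5 was too dim to be tested. In bulk RNA such as this, fewer cells of a type and less RNA per cell cannot be told apart.

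RefSeq promoter windows (build GRCm38.p6, 250 bases before to 50 after a listed start) were found for 7 of the 10 genes, 10 windows in all. They were searched on both strands for TGATGNAA, the core of the amino acid response element that Atf4 and its partners bind, and for CACGTG, the E-box that Myc and related factors bind. The motifs share no bases in these windows. The windows of the 2 carriers that rose are shown from the base 250 before the start, 5′ to 3′ on the gene's strand, with motif matches in capitals. That of Slc1a4 lies at chr11:20332710-20332963 on the minus strand and runs 4 bases past the start, to the end of its match, and that of Slc38a7 lies at chr8:95853492-95853741 on the minus strand.
Slc1a4: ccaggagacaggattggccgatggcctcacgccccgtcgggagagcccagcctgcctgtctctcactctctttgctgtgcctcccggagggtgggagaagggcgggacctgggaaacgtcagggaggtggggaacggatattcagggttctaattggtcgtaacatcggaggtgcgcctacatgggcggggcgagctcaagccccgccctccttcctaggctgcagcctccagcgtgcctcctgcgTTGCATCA
Slc38a7: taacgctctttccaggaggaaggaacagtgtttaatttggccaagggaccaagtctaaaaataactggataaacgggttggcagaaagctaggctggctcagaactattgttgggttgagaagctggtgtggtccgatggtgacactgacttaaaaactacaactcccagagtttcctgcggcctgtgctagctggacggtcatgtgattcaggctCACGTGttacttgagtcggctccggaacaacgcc

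The capitals in Slc1a4 are the response element core on the opposite strand, which covers the 4 bases before the start and the first 4 transcribed bases. This core was found in 1 of the 10 carrier windows and in 3.97% of all 32851 windows. The capitals in Slc38a7 are an E-box at 34 to 29 bases before the start. E-boxes were found in 3 of the 10 carrier windows, in Slc38a7, Slc38a5 and Slc43a1, and in 7.15% of all windows. The other E-boxes are shown for comparison within 40 bases, that of Slc38a5 at chrX:8271334-8271373 and that of Slc43a1 at chr2:84840242-84840281, both on the plus strand.
Slc38a7, E-box: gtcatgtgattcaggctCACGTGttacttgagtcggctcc
Slc38a5, E-box: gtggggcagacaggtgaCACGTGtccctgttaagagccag
Slc43a1, E-box: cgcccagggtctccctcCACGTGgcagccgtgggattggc
Of these 3 genes with an E-box, 1 rose, 1 did not pass the threshold and 1 was too dim to test. The windows of Slc38a2, Slc43a2 and Slc6a9 held neither set of letters, which says nothing of sites elsewhere in those genes. Slc38a1, Slc1a5 and Slc6a6 are named only.

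Slc1a4 exchanges alanine, serine, cysteine and threonine across the plasma membrane. It read 6.24, 6.55 and 6.56 in the low arginine arrays, against 5.05, 5.82 and 5.68 in control replicates 1, 2 and 3. Every low arginine array lay above every control array, and control replicate 1 was the lowest of the 6. The change was 0.93 ± 0.21 (SE), or 1.91-fold, with limma's Benjamini-Hochberg adjusted p = 0.029 and a 95% confidence interval of 0.44 to 1.42. Among all genes tested, 5.3% changed by more in either direction. Without control replicate 1 the change was 0.70 (limma adjusted p = 0.0101).

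Slc1a5, the closest relative of Slc1a4 among these genes, exchanges glutamine and other neutral amino acids. Its levels were 8.75, 8.92 and 8.72 in low arginine, against 8.85, 8.43 and 8.17 in control. Control replicate 1 lay within the range of the low arginine arrays and the other controls lay below it. The change of 0.31 ± 0.18 (SE) did not pass the threshold (limma adjusted p = 0.318, 95% confidence interval -0.10 to 0.73). Single controls moved it. Without control replicate 1 it was 0.50 and passed (limma adjusted p = 0.028), as did 22.5% of all genes tested, against 12.2% with all arrays. Without control replicate 3 it was 0.16 (limma adjusted p = 0.623). The second, dimmer probe set of Slc1a5 averaged 6.21 ± 0.18 in low arginine and 5.99 ± 0.19 in control (SD, n = 3 each), a difference of 0.22 with overlapping groups.

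**Figure D1:**
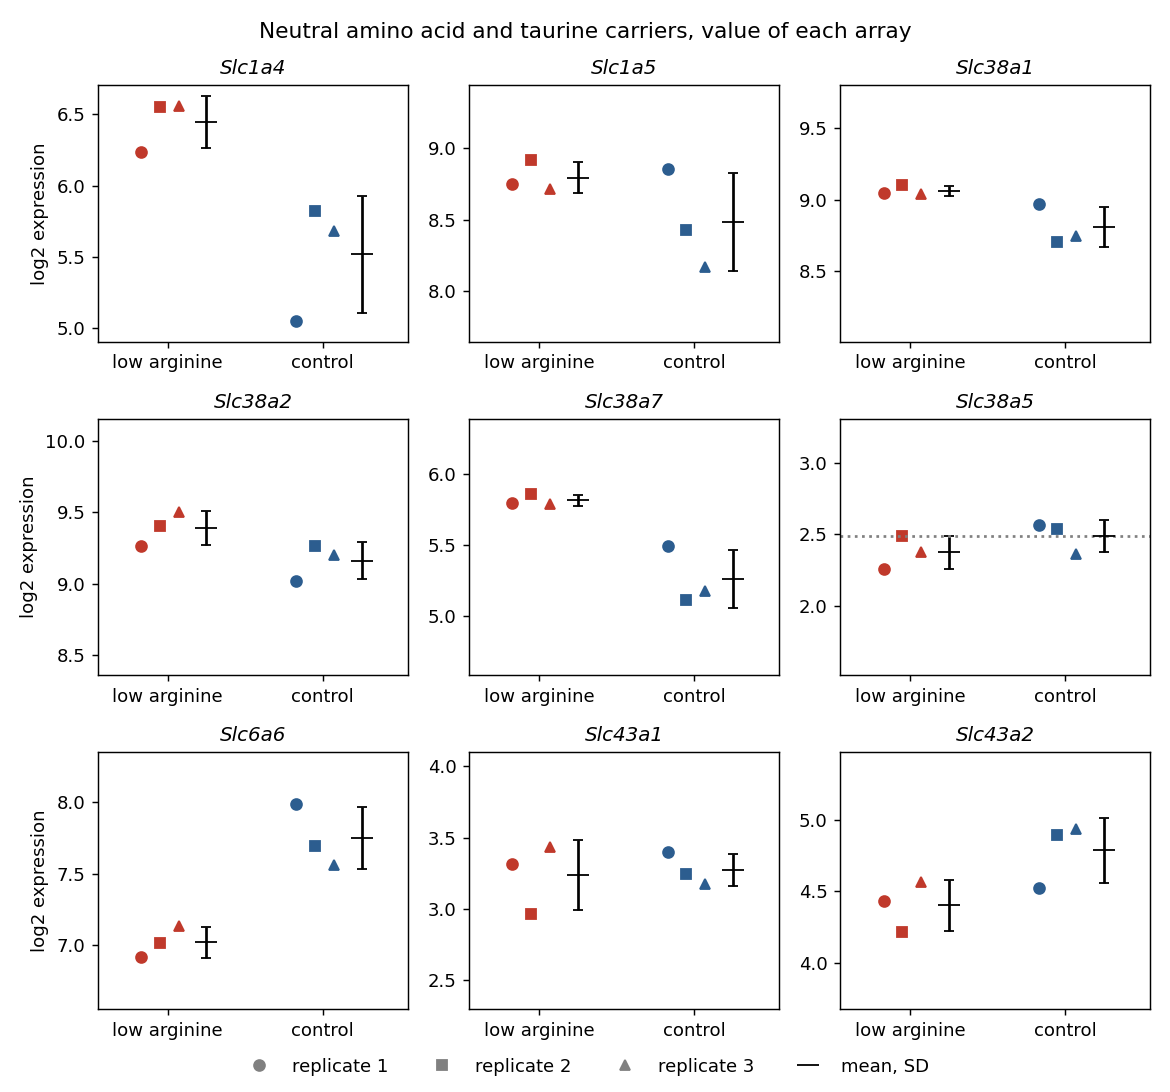
Level of each of the 9 carriers in each array (log2 expression, same span on every axis), low arginine in red on the left and control in blue on the right, with replicate numbers as symbols and mean ± SD beside the points. The groups lie apart for Slc1a4, Slc38a1, Slc38a2, Slc38a7 and Slc6a6 and overlap for the other 4, and the dotted line for Slc38a5 is the limit of 2.48 for dim genes.

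Among the SLC38 carriers, Slc38a7 sits in the lysosomal membrane and exports glutamine and asparagine from the lysosome. It read 5.80, 5.86 and 5.78 in low arginine, against 5.49, 5.12 and 5.18 in control. The low arginine arrays were close to each other (SD 0.04, against 0.20 in control) and all lay above the controls, of which replicate 1 was the highest. The change was 0.55 ± 0.13 (SE), or 1.46-fold, with limma's adjusted p = 0.0322 and a 95% confidence interval of 0.25 to 0.85. Without control replicate 1 it was 0.66 (limma adjusted p = 0.00426). The call ended after centring the arrays on their 75th percentile (change 0.49, adjusted p = 0.0541).

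Slc38a1 and Slc38a2 are the sodium-coupled carriers of the plasma membrane that bring in glutamine and alanine. They are next to each other in the RefSeq order of protein-coding genes. Slc38a1 read 9.05, 9.10 and 9.04 in low arginine, against 8.97, 8.70 and 8.75 in control. Slc38a2 read 9.27, 9.41 and 9.50 in low arginine, against 9.02, 9.27 and 9.20 in control. For both genes the low arginine arrays lay above all controls, for Slc38a2 by less than 0.01 between the nearest arrays. Neither passed the test: the change of Slc38a1 was 0.26 ± 0.11 (SE; limma adjusted p = 0.194, 95% confidence interval -0.01 to 0.52), and that of Slc38a2 was 0.23 ± 0.12 (SE; limma adjusted p = 0.27, 95% confidence interval -0.05 to 0.51). These intervals hold changes of up to about 0.5 as well as none. Without control replicate 1 the changes were 0.34 for Slc38a1 and 0.16 for Slc38a2 (limma adjusted p = 0.0502 and 0.383). Slc38a5, which carries glutamine, glycine and serine, read 2.26, 2.49 and 2.37 in low arginine, against 2.56, 2.53 and 2.36 in control. Its mean level of 2.43 was under the limit for dim genes, and its groups overlapped.

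Slc6a6, the sodium- and chloride-dependent taurine carrier, was the carrier that fell. It read 6.92, 7.01 and 7.13 in low arginine, against 7.99, 7.70 and 7.56 in control. Every low arginine array lay below every control, and control replicate 1 was the highest of the 6. The change was -0.73 ± 0.14 (SE), a 1.66-fold lower level, with limma's adjusted p = 0.0166 and a 95% confidence interval of -1.05 to -0.41. Among all genes tested, 8.41% changed by more in either direction. Without control replicate 1 it was -0.61 (limma adjusted p = 0.00945).

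The SLC43 carriers move branched-chain and aromatic amino acids by facilitated diffusion. Slc43a2 read 4.43, 4.21 and 4.56 in low arginine, against 4.52, 4.90 and 4.94 in control, so that control replicate 1 lay among the low arginine arrays. Its change of -0.38 ± 0.15 (SE) had an unadjusted p of 0.0381 and did not pass after adjustment (limma adjusted p = 0.154, 95% confidence interval -0.74 to -0.03). Without control replicate 1 it was -0.52 and passed (limma adjusted p = 0.0268), as did 22.5% of all genes tested. Slc43a1 read 3.31, 2.97 and 3.43 in low arginine, against 3.40, 3.24 and 3.18 in control, with overlapping groups and a change of -0.04 ± 0.15 (SE; limma adjusted p = 0.916, 95% confidence interval -0.38 to 0.30). Without control replicate 1 its change was 0.03 (limma adjusted p = 0.93), of the opposite sign. Its level lay within 1 log2 of the limit for dim genes.

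The calls of Slc1a4, Slc38a7 and Slc6a6 rested on all of the low arginine arrays and on control replicate 2. None of the 3 passed when low arginine replicate 1, 2 or 3 or control replicate 2 was left out, with limma adjusted p of 0.0536 to 0.113 for Slc1a4, 0.0906 to 0.12 for Slc38a7 and 0.0526 to 0.075 for Slc6a6. Calls over all genes, 1799 as reported, fell in these fits too. They numbered 995, 509 and 592 without low arginine replicates 1, 2 and 3, and 500 without control replicate 2. Slc38a7 did not pass without control replicate 3 either (adjusted p = 0.0788). The direction of each of these 3 changes stayed as reported in those fits, with changes of 0.70 to 1.08 for Slc1a4, 0.48 to 0.66 for Slc38a7 and -0.82 to -0.61 for Slc6a6 over all 6 fits that left out an array.

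**Figure D2:**
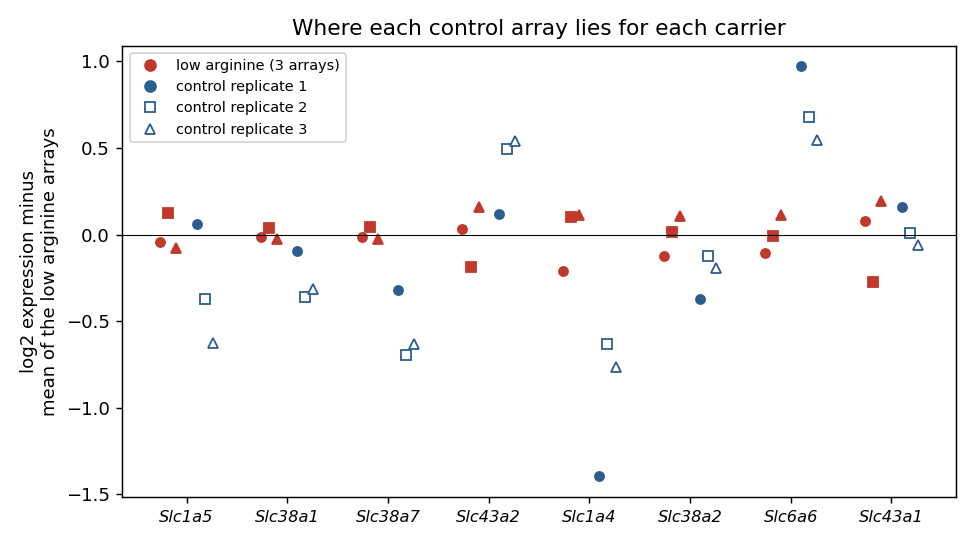
Level of each tested carrier in each array minus the mean of the low arginine arrays (log2 expression), low arginine in red and control in blue, with control replicate 1 as the filled blue point. For the 4 carriers on the left control replicate 1 is the control nearest to the low arginine mean, and for the 4 on the right it is the farthest.

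The carriers differed in how control replicate 1 lay to the other controls. For Slc1a5, Slc38a1, Slc38a7 and Slc43a2 it was the control nearest to the low arginine mean. For Slc1a4, Slc38a2, Slc6a6 and Slc43a1 it was the farthest. Its difference from the mean of the other controls was -0.70 for Slc1a4 and 0.56 for Slc1a5. Leaving it out therefore lowered the change of Slc1a4 and enlarged that of Slc1a5, as the values above show.

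**Figure D3:**
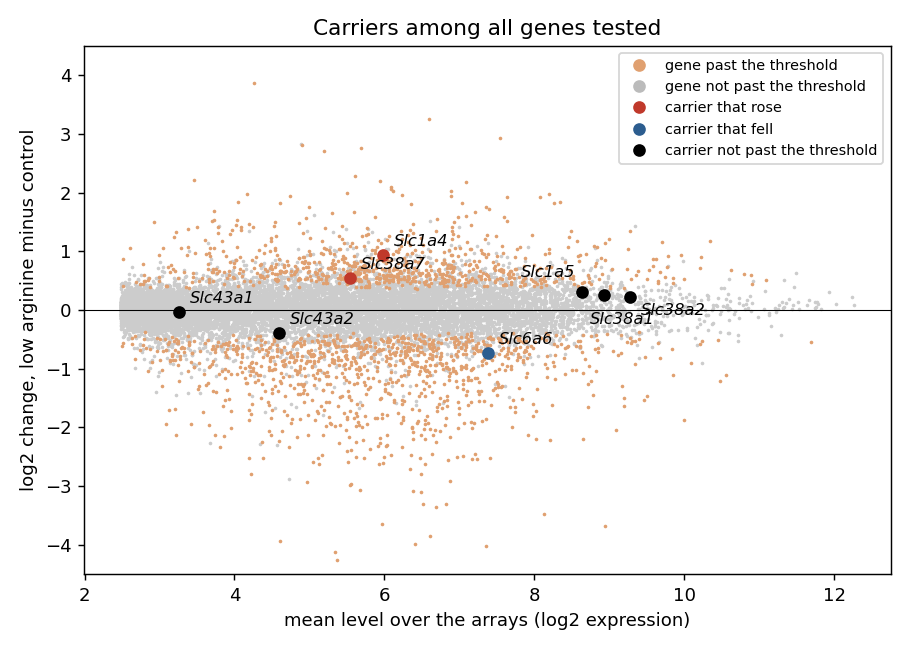
Change (low arginine minus control, log2 scale) against mean level over the 6 arrays (log2 expression) for the 14787 genes tested, with the 8 tested carriers named. Slc1a4 and Slc38a7 (red) lie above 0 and Slc6a6 (blue) below it among the genes past the threshold, and the other 5 carriers (black) lie in the band of genes that did not pass.

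The other carriers of the SLC1, SLC6, SLC36, SLC38 and SLC43 families were taken as a list. Of 35 listed genes 34 had a probe set and 23 were bright enough to test. With limma 0 of the 23 passed after adjustment and 0 lay at an unadjusted p below 0.05, with changes from -0.46 to 0.39 and a median of -0.02. Most of the 23 lay near the limit for dim genes in both groups. The count and the median therefore do not show whether these dim carriers respond to low arginine. Slc38a9, Slc36a4 and Slc36a1, described next, lay well above that limit, as did Slc43a3, Slc38a10, Slc38a6 and Slc6a8. Of these last, Slc38a6 changed by 0.39, the largest rise of the list, and Slc38a10 by 0.08 (limma adjusted p = 0.421 and 0.812). Slc43a3 changed by -0.10 and Slc6a8 by -0.19 (limma adjusted p = 0.865 and 0.322), and only for Slc6a8 did the groups not overlap. Slc38a9, a lysosomal carrier that senses arginine for mTORC1, averaged 6.65 ± 0.08 in low arginine and 6.65 ± 0.23 in control (SD, n = 3 each). Slc36a4, a carrier of neutral amino acids, averaged 9.59 ± 0.14 in low arginine and 9.59 ± 0.19 in control, and Slc36a1, which exports small amino acids from the lysosome, averaged 5.50 ± 0.04 in low arginine and 5.46 ± 0.19 in control. Slc38a9, Slc36a4 and Slc36a1 were named for their known roles and the other bright carriers for their level, all after their values were seen.

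Slc43a2 and Slc43a1 share substrates with Slc7a5, which takes in leucine in exchange for glutamine and pairs with Slc3a2, the heavy chain of the dimer. In the SLC7 and SLC3 families, 5 of 11 genes tested rose and 0 fell, with a median change of 0.30. This was 45.5% called, beside 12.2% of all genes tested. Slc7a3 and Slc7a1, carriers of arginine and other cationic amino acids, rose by 2.03 and 1.04, and Slc7a11, the cystine carrier, by 1.33. Slc7a5 averaged 10.28 ± 0.03 in low arginine and 9.13 ± 0.26 in control, and Slc3a2 averaged 10.02 ± 0.09 in low arginine and 9.15 ± 0.10 in control (SD, n = 3 each; limma adjusted p = 0.00474 for both). All 6 of these arrays serve for every carrier, so the families were not compared by a test.

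**Figure D4:**
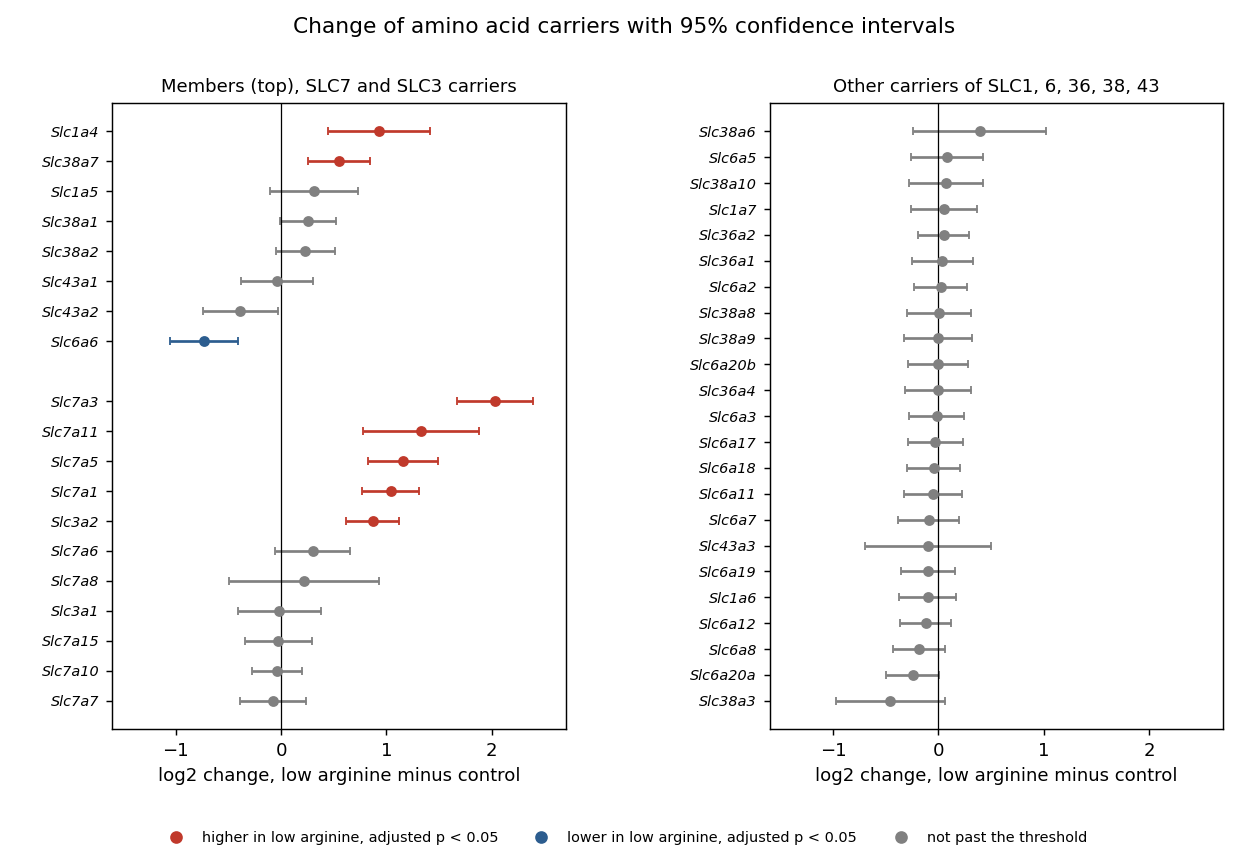
Change of each tested carrier (low arginine minus control, log2 scale) with its 95% confidence interval, the members at the top left, the SLC7 and SLC3 carriers under them and the other carriers of the same families on the right. Intervals of the 2 members that rose, of the 1 that fell and of the 5 SLC7 and SLC3 genes that rose lie off 0. That of Slc43a2, which did not pass after adjustment, lies off 0 as well. On the right 0 of the 23 genes passed the threshold, and most of these 23 lay near the limit for dim genes.

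Among genes that use the carried amino acids, 2 of 12, 2 of 8 and 0 of 13 tested were called in 3 lists, beside 12.2% of all genes tested, so these counts are no result about the lists. Of 12 genes of glutamine use tested, Asns, which makes asparagine from glutamine and aspartate, rose by 0.59 (limma adjusted p = 0.0128) and Got2, the mitochondrial aspartate aminotransferase, fell by 0.73 (limma adjusted p = 0.0187), while the other 10 did not pass. Of 8 genes of branched-chain amino acid use, 2 rose and 0 fell. Bcat1, the cytosolic aminotransferase of leucine, isoleucine and valine, averaged 6.92 ± 0.08 in low arginine and 5.90 ± 0.30 in control (SD, n = 3 each; limma adjusted p = 0.0093), and Lars, the leucyl-tRNA synthetase, rose by 0.88. Of 13 genes of glycine and serine use, 0 passed after adjustment in limma, and 4 lay at an unadjusted p below 0.05, 2 higher and 2 lower.

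Beside the fall of Slc6a6, genes of taurine synthesis and conjugation and of the osmotic response were counted, since taurine is an osmolyte as well as a product of cysteine. Of 6 genes of taurine synthesis and conjugation tested, 0 passed after adjustment and 0 at an unadjusted p below 0.05, with changes of 0.04 to 0.29. Of 13 listed genes of the osmotic response, 11 had a probe set of their own, Akr1b3 and Slc5a3 not among them, and 10 were tested. Of these 10, 0 passed after adjustment and 2 at an unadjusted p below 0.05, Nfat5 higher and Hspa1b lower. Nfat5, the transcription factor of that response, averaged 8.80 ± 0.09 in low arginine and 8.14 ± 0.37 in control (SD, n = 3 each; limma adjusted p = 0.0593), and was named for that role after its value was seen. Hspa1b averaged 2.81 ± 0.05 in low arginine, near the limit for dim genes, and 3.55 ± 0.69 in control (SD, n = 3 each; limma adjusted p = 0.16).

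Atf4 and its targets of the amino acid response, other than the carriers described here, made a list of 26 tested genes. Of these, 10 rose and 2 fell (46.2% called, beside 12.2% of all genes, median change 0.55). The 14 that did not pass included Trib3, Ddit3 and Psat1. Atf4 itself averaged 8.59 ± 0.16 in low arginine and 8.45 ± 0.17 in control (SD, n = 3 each; limma adjusted p = 0.583). The largest rises were in Cth, Sesn2, Nupr1 and Aldh1l2, with changes of 3.26, 1.55, 1.50 and 1.41, and Stc2 and Ddit4 fell. The list shares Slc7a5, Slc7a11 and Slc3a2 with the SLC7 and SLC3 carriers. Of 10 genes of the Myc network, 1 fell and 0 rose (10% called). This is near the 12.2% of all genes, so the count is no result about the list. Mxi1, a partner of Max that opposes Myc, fell by 1.40 (limma adjusted p = 0.00691), and Myc itself averaged 8.96 ± 0.05 in low arginine and 8.73 ± 0.17 in control (SD, n = 3 each; limma adjusted p = 0.258). Of 26 genes of amino acid sensing by mTORC1, 4 rose and 4 fell (30.8% called, beside 12.2% of all genes). Castor1, a cytosolic arginine sensor, averaged 5.59 ± 0.06 in low arginine and 6.87 ± 0.20 in control (SD, n = 3 each; limma adjusted p = 0.00222). Castor2, Lamtor2 and Wdr24 fell as well, by 0.94, 0.80 and 0.47. Sesn2, a leucine sensor and Atf4 target, rose by 1.55, and Rragd, Nprl3 and Mios rose by 0.75, 0.73 and 0.46.

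By distance of their profiles over the 6 arrays (each gene centred on its own mean), the genes most like Slc1a4 were L1cam, Sfi1 and Use1, at root mean square distances of 0.07, 0.08 and 0.08 log2. Those most like Slc6a6 were Cope, Ssr3 and Xbp1, at 0.06, 0.06 and 0.07 log2. L1cam changed by 0.97 and Cope by -0.74. Genes picked for a like profile over these arrays have a like change by construction, so these changes are no separate result.

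Over 9 T cell markers with a probe set, the mean level was 9.19 to 9.32 in the low arginine arrays and 9.35 to 9.38 in the control arrays. B cell markers averaged 2.55 to 2.61 in low arginine and 2.52 to 2.64 in control, with 3 of 8 under the limit for dim genes, among them Ms4a1. Myeloid and dendritic markers averaged 2.75 to 2.88 in low arginine and 2.71 to 2.75 in control, with 5 of 13 under the limit, among them Lyz2, Cd14 and Adgre1. Cd68, the brightest of that list, averaged 5.49 ± 0.14 in low arginine and 5.28 ± 0.62 in control (SD, n = 3 each; limma adjusted p = 0.703). The CD8 and NK markers averaged 4.01 to 4.15 in low arginine and 4.22 to 4.48 in control. Of 7 tested, 2 fell (Klrk1 and Nkg7), or 28.6% called, beside 12.2% of all genes tested. Cd8b1 averaged 6.24 ± 0.21 in low arginine and 6.90 ± 0.34 in control (SD, n = 3 each). It did not pass (limma adjusted p = 0.0632), though its groups did not overlap. Cd8a was dimmer, at 2.85 in low arginine and 3.46 in control, with overlapping groups. Changes over the 7 ran from -1.04 to 0.79, the highest in Eomes, which did not pass (limma adjusted p = 0.0779). The plasma cell list averaged 5.06 to 5.14 in low arginine and 5.30 to 5.53 in control. Of 5 tested, 2 fell (40% called), Xbp1 and Prdm1, which activated T cells also express. Irf4 was higher by 0.54 in low arginine and did not pass (limma adjusted p = 0.233). Jchain was under the limit for dim genes and Sdc1 lay near it in both groups. Erythroid markers averaged 3.39 to 3.59 in low arginine and 3.53 to 3.90 in control. Those of platelets averaged 3.47 to 3.69 in low arginine and 3.78 to 4.44 in control. Those of mast cells and granulocytes averaged 2.45 to 2.88 in low arginine and 2.91 to 3.32 in control. None of the 13 tested in these 3 lists passed in limma (2 at an unadjusted p below 0.05). The brightest of each list, in low arginine and control, were Tfrc (7.52 and 8.43), Itgb3 (6.97 and 8.26) and Cpa3 (5.61 and 7.22). They had the largest differences of their lists and so weigh most in these means (limma adjusted p = 0.0676 for Itgb3). The other markers were far dimmer, with Slc4a1, Pf4 and Fcer1a near or under the limit for dim genes in both groups. The part of other cells in the carrier changes was not tested.

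**Figure D5:**
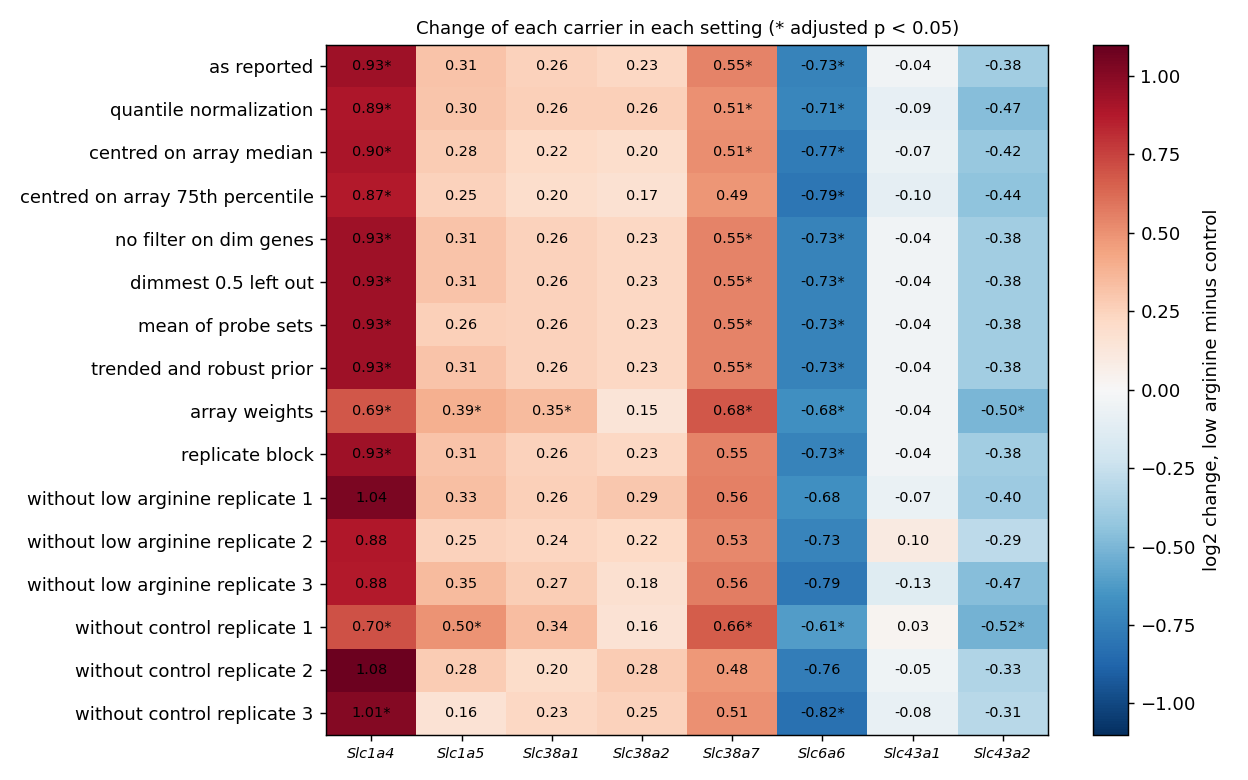
Change of each tested carrier (columns; low arginine minus control, log2 scale, as colour and number) in each setting of the analysis (rows), with a star where the adjusted p is under 0.05. Slc1a4, Slc38a7 and Slc6a6 keep their sign in all 16 rows, Slc43a1 does not, and the stars of Slc1a4, Slc38a7 and Slc6a6 are missing where a low arginine array or control replicate 2 is left out, that of Slc38a7 also in 3 other rows.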

How the data were processed

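Per the labels, RNA was labelled with a whole-transcript kit for arrays. The deposited values are log2 expression per probe set, as the authors gave them, and their sorted values differ by at most 0.199 between arrays. The submitters' processing notes name the oligo package, without its role. How background and normalisation were handled is "not given in the sources used here", nor is the log base, which is read here as 2 because values lie between 0.96 and 12.41.

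Of 41345 probe sets, 23521 carried exactly 1 gene symbol, 1814 several and 16010 none. Symbols were updated through RefSeq (GRCm38.p6), and 230 of 246 entries of the gene lists were matched. The test was two-sided, from limma 3.58.1 under R 4.3.3, with group as the factor and an empirical Bayes prior (degrees of freedom 4 residual, 3.69 prior), adjusted over all 14787 genes. The code was tested on simulated data. Figures were drawn with matplotlib 3.10.9.

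The members, lists and tests were chosen with earlier results of these data known. The naming rule took all members, up to 4 called genes in each direction per list, and the 3 genes nearest in profile to the largest rise and the largest fall. Other genes (Slc3a2 as the partner of Slc7a5, cell type markers, and uncalled genes such as Slc38a9, Nfat5 and Myc) were named outside it, after their values were seen. Background correction could not be varied. Alternatives numbered 15.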

Additional observations from a re-analysis of the deposited data

How the results depend on the processing

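Carrier changes of 0.23, 0.26, 0.31 and -0.38 did not pass with 3 arrays a group. No called carrier change turned in sign under the 15 alternatives, while Slc43a1, which was not called, ranged from -0.13 to 0.10. Leaving out 1 array at a time gave 500 to 3325 changed genes (1799 as reported), or 3.38% to 22.5% of all genes tested. Carriers that rose then numbered 0 to 3 (2 as reported) and those that fell 0 to 2 (1 as reported). With array weights, 5514 genes changed, or 37.3% of all genes tested, against 12.2% as reported. In that fit 4 carriers rose (Slc38a1 and Slc1a5 passed as well, adjusted p = 0.00889 and 0.0185) and 2 fell (Slc43a2 passed as well, adjusted p = 0.00605). Control replicate 2 was weighted at 5.19 and the other arrays at 0.24 to 1.45. After centring the arrays on their 75th percentile 1 carrier rose. With the replicate block 1 carrier rose, since Slc38a7 did not pass (adjusted p = 0.0547), and 1568 genes changed. Deviations from the group means correlated at 0.12, 0.06 and 0.14 between arrays of the same number, and every array correlated best with its own number, a hint from the data and not from the design, so the numbers were not used as pairs. The cause of these changes was not tested.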

Other observations

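Slc38a7 and Got2 follow each other in the RefSeq order of protein-coding genes. They changed in opposite directions, Slc38a7 by 0.55 and Got2 by -0.73, with groups that did not overlap for either gene. Slc38a4, the gene that follows Slc38a2 in that order, averaged 2.09 ± 0.13 in low arginine and 2.18 ± 0.12 in control (SD, n = 3 each), under the limit for dim genes. These neighbours were looked up after the values of the carriers had been seen. Cpa3, a mast cell protease, averaged 5.61 in low arginine and 7.22 in control (limma adjusted p = 0.224), and Tfrc, the transferrin receptor of dividing cells, averaged 7.52 ± 0.22 in low arginine and 8.43 ± 0.89 in control (SD, n = 3 each; limma adjusted p = 0.184).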
